A study of Mus musculus with 6 samples.

Results

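Chemokines, cytokines and leukocyte adhesion molecules were examined in hepatoblasts of the immortalized mouse line BMEL, which stand for the fetal liver progenitors of hepatocytes and bile duct cells. The genes were taken by name from the array's annotation: all symbols made of Ccl or Cxcl and a number, together with Cx3cl1, Csf1, Csf2, Csf3, Il1a, Il1b, Il6, Il11, Il18, Il33, Lif, Tnf, Tslp, Vcam1, Icam1 and Sele. This gave 47 genes of the 30927 tested. The line came from wild-type CD1 embryos at stage E12.5, and 50000 cells per collagen-coated well were transfected by lipofection 1 day after plating. One group of 3 samples received 500 ng of a miRIDIAN mimic of mmu-miR-337-3p and the other group of 3 received 500 ng of miRIDIAN mimic negative control #1, and both were transfected for 48 h. All 6 samples are of this 1 line, and a control without transfection was not analysed here. The labels number the samples 1 to 3 in each group, and do not say whether these were separate cultures. The p-values therefore measure the spread between samples, or between same-numbered pairs where samples are paired. Either spread may be technical.

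Chemokines are small secreted proteins that attract leukocytes through receptors on the leukocyte surface. Those of the CC family, such as Ccl2, chiefly draw monocytes and lymphocytes, and CXC chemokines of the Cxcl1 type draw neutrophils. Colony-stimulating factors drive the growth and activation of macrophages and granulocytes, while Vcam1 and Icam1 on a cell's surface hold leukocytes by their integrins. Many of these genes are low in resting cells and are switched on by the transcription factor NF-kB after stimulation by tumour necrosis factor, interleukin 1 or microbial products, and liver epithelium can make several of them.

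The microRNA whose mimic was added is shown here because its bases 2 to 8, the seed in capitals, are the part that pairs with target messages. The mature sequence is that of RefSeq (GRCm38.p6, chr12:109585850-109585871, plus strand).
mmu-miR-337-3p: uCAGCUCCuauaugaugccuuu

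Signals are deposited log2 values, on which a difference of 1 is a doubling, and the median over all genes tested lay between 4.83 and 5.01 on the 6 arrays. Since the array gives no detection call, a signal near that median may be background. Of the 47 genes, 25 had a mean over the 6 arrays below the median of all genes (4.89), 11 lay between it and the upper quartile (7.09), and 11 lay above the upper quartile. Of the hepatoblast markers, Krt18, Cdh1 and Hnf4a had means of 12.02, 11.15 and 9.87, Afp and Alb 6.35 and 5.97, and Dlk1 lay under the median at 4.79. Epcam and Ttr of that list fell on the groups alone, by 0.997 and 1.22 on the log2 scale, and Alb fell by 1.14 with the replicate number as a block (adjusted p = 0.0249; 0.127 on the groups alone). Defining leukocyte and endothelial markers were near background, with means of 3.38 for Ptprc, 4.27 for Cdh5 and 4.27 for Pecam1. Summed over 12 leukocyte markers, the linear signal was 455 to 559 in control samples and 645 to 897 in mimic samples. Within that list Cd68 and Cd14 had means of 7.53 and 7.76 and Csf1r 5.46, and the other 9 lay between 3.38 and 4.52. On the linear scale Cd68 and Cd14 thus make up most of each sum. The sums over 8 endothelial markers (152 to 185 in control, 153 to 186 in mimic samples) and over 9 stellate and mesenchymal markers (267 to 282 and 265 to 300) overlapped between the groups, although Col1a1 of the last list rose by 0.59 (adjusted p = 0.0384). Within the leukocyte list Cd68 rose by 1.18 on the groups alone (adjusted p = 0.0320), and Cd14, whose groups did not overlap either, differed by 0.88 (adjusted p = 0.106; 0.00543 in a fit with the replicate number as a block). Csf1r of that list went the other way, by -0.36 with groups that did not overlap (adjusted p = 0.433 on the groups alone). Over the 12 markers, 7 differences were above 0 and 5 below, with a median of 0.02. Whether the leukocyte list has a part in the results below was not tested. In bulk RNA, more cells of a type cannot be told apart from more RNA per cell.

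When samples were paired by replicate number, a set of inducible chemokines, colony-stimulating factors and Vcam1 was called higher after miR-337-3p mimic. Ccl20 and Il33 were called lower in that fit. The pairing was taken from the values, since the labels do not give it, and most of these genes did not pass without it. On the groups alone, 2 of the 47 genes rose (Vcam1 and Ccl9) and 0 fell at an adjusted p under 0.05 in limma, where 1.89% of all genes tested rose and 1.68% fell. Over all genes that was 584 rises and 519 falls, and after median centring of the arrays 351 rises and 389 falls. Before adjustment, 7 of the 47 had a p under 0.05, or 14.9%, with 6 of these higher and 1 lower after the mimic. Over all genes tested nearly the same share, 15.1%, had such a p, with 8.7% higher and 6.38% lower. With quantile normalization the split was 1 rise and 1 fall, since Ccl9 was lost (adjusted p = 0.0669) and Il33 was called (adjusted p = 0.0322). The samples of the same replicate number deviated together, and a fit with the replicate number as a block removed that shared part. Blocked in this way, 10 of the 47 genes rose (21.3%) and 2 were called lower (4.26%), against 4.7% and 3.88% of all genes. The genes that rose were Vcam1, Ccl2, Csf2, Ccl9, Cxcl5, Ccl7, Lif, Cxcl1, Csf1 and Cxcl10, and those that fell were Ccl20 and Il33. All 12 had means above the median of all genes, and none of the 25 genes below that median passed in either fit; these means include the mimic samples.

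**Figure D1:**
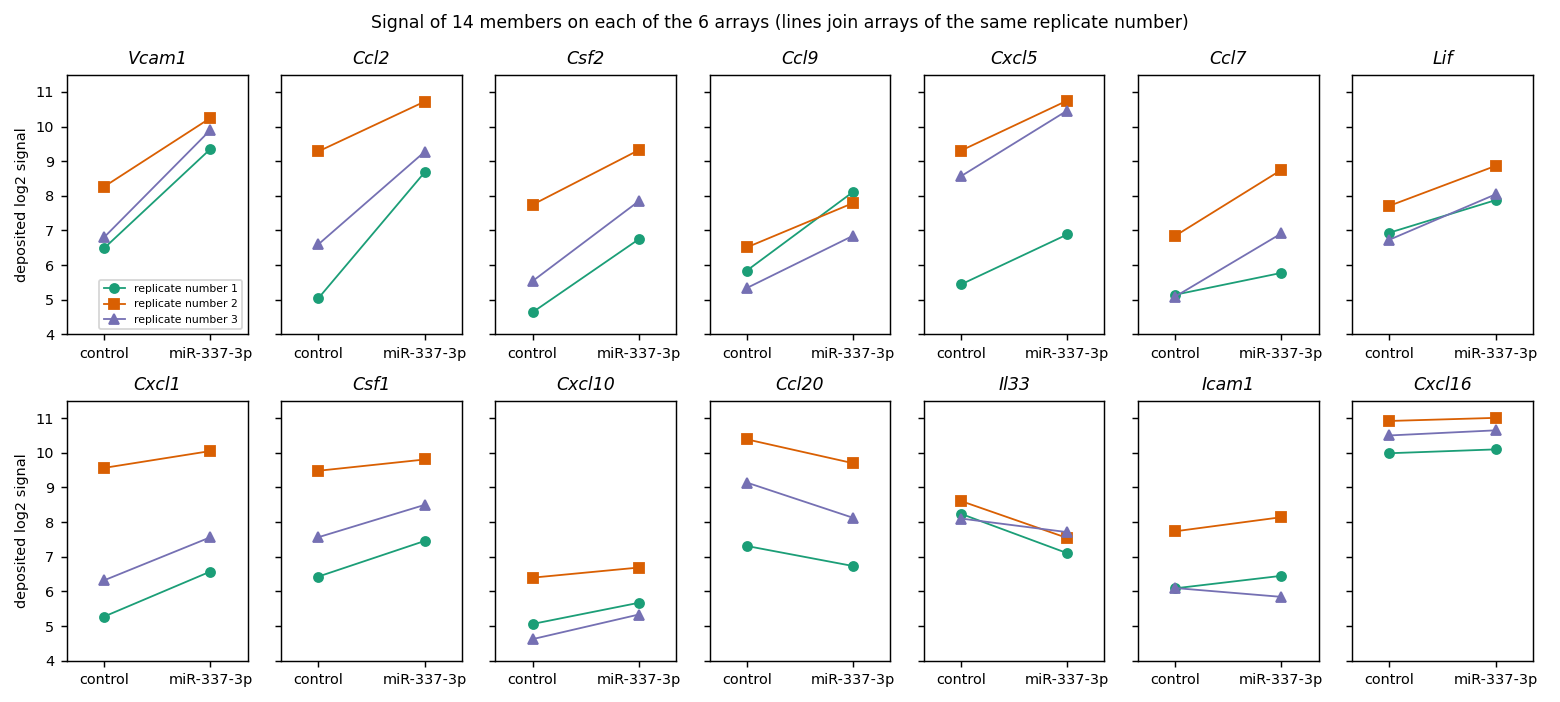
Deposited log2 signal (vertical axis) of the 12 genes called in the fit with the replicate block, and of Icam1 and Cxcl16, on each array. Each line joins the control and the miR-337-3p sample of 1 replicate number. The lines of Ccl2 start between 5.04 and 9.28 and those of Cxcl1 between 5.28 and 9.57, all lines of Ccl2, Csf2, Cxcl5 and Cxcl1 go up, those of Ccl20 go down, and Cxcl16 is nearly level.

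The median log2 difference over the 47 genes was 0.06, against 0.02 over all genes tested. Control and mimic samples did not overlap for 7 of them, with Vcam1, Ccl9, Lif and Ccl17 higher in the mimic samples and Il33, Il11 and Ccl25 lower. These are 8.51% and 6.38% of the genes, against 11.2% and 8.33% of all genes tested, so separated groups were no more frequent here than elsewhere. Within replicate numbers, 16 of the 47 genes were higher in the mimic sample in all 3 and 6 were lower in all 3, or 34.0% and 12.8%, against 24.1% and 18.5% of all genes tested.

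**Figure D2:**
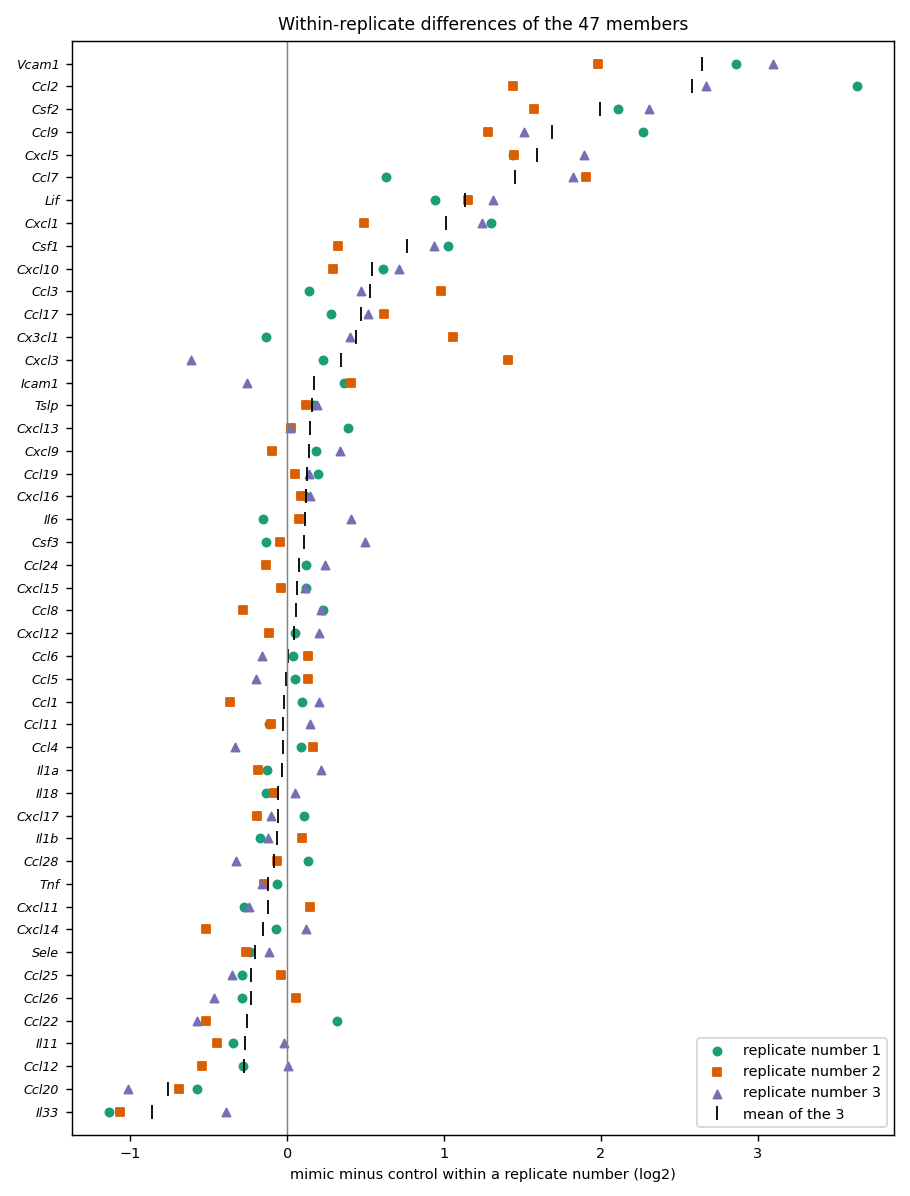
Difference between the mimic and the control sample of each replicate number (horizontal axis, log2) for all 47 genes, ordered by the mean of the 3, which the black tick marks. From Vcam1 to Cxcl10 the 3 points of each gene lie right of 0, for Il33 and Ccl20 they lie left of it, and most genes between them scatter around 0.

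Among the CC chemokines, Ccl2 had the largest difference. Ccl2 (transcript cluster 17254041), the main chemoattractant of monocytes through the receptor Ccr2, read 5.04, 9.28 and 6.60 in control samples 1 to 3 and 8.68, 10.72 and 9.27 in mimic samples 1 to 3. The groups overlap, because control sample 2 reads above mimic samples 1 and 3, yet every mimic sample exceeds the control of its own number, by 3.63, 1.44 and 2.67. Control sample 1, from which the largest of these comes, lies close to its array median of 4.95 and may be background. The log2 difference was 2.58, or 5.98-fold, with a standard error (SE) of 0.95 on the groups alone (adjusted p = 0.231) and 0.35 with the block (adjusted p = 0.00674). Without control sample 2 it passed on the groups alone as well (adjusted p = 0.0278).

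Ccl7, a second ligand of Ccr2, read 5.15, 6.85 and 5.09 in control and 5.78, 8.75 and 6.92 in mimic samples. Sample 2 was again the highest of each group, and the groups overlap. Control samples 1 and 3 lie close to their array medians of 4.95 and 4.83, so they may be background. The mean difference was 1.45 on the log2 scale (SE 0.72, adjusted p = 0.414 on the groups alone; SE 0.24, adjusted p = 0.0131 with the block), and it did not pass without both samples of number 2 (adjusted p = 0.0744).

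Ccl9 (transcript cluster 17266952), a mouse chemokine that acts on myeloid cells through Ccr1, was the 1 CC chemokine called on the groups alone. Its values were 5.84, 6.51 and 5.34 in control and 8.11, 7.79 and 6.85 in mimic samples. Here every mimic sample lay above every control sample, and mimic sample 1 rather than 2 was the highest. The log2 difference was 1.69, or 3.22-fold (SE 0.37, adjusted p = 0.0453; 0.00409 with the block). With 1 array left out, the adjusted p on the groups alone ran from 0.0270 to 0.156, passing without control sample 2 or mimic sample 3 and in none of the other 4 such fits.

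Ccl20 moved the other way. This chemokine, which attracts lymphocytes and dendritic cells through Ccr6, read 7.31, 10.39 and 9.14 in control and 6.73, 9.70 and 8.13 in mimic samples. The groups overlap almost fully, while each mimic sample lay below the control of its number, by 0.58, 0.69 and 1.02. This made a difference of -0.76 (SE 0.86, adjusted p = 0.818 on the groups alone; SE 0.13, adjusted p = 0.0131 with the block). Without both samples of number 2 the adjusted p was 0.0557.

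The other 15 CC chemokines passed in neither fit. Ccl17, a ligand of Ccr4, had a log2 difference of 0.47 with groups that did not overlap, but its signals of 3.57 to 4.47 all lie under the array medians (adjusted p = 0.185, and 0.0538 with the block). Ccl3, a ligand of Ccr1, had 0.53 (adjusted p = 0.458; 0.107 with the block), with its highest value, 5.44, in mimic sample 2. Ccl25, a chemokine of thymus and gut, was the brightest of the 15 with a mean of 7.24 and a difference of -0.23 (95% interval -0.53 to 0.08, adjusted p = 0.521). Ccl12 and Ccl26 had -0.27 and -0.23 at means of 2.93 and 3.92, and the remaining differences lay between those of Ccl22 (-0.26) and Ccl19 (0.13). Ccl19 was read by 5 transcript clusters, of which the brightest was used, and the others had differences of -0.05 to 0.04.

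Of the CXC chemokines, the neutrophil attractants Cxcl5 and Cxcl1 and the interferon-induced Cxcl10 rose in the fit with the block. Cxcl5 (transcript cluster 17438955), a ligand of Cxcr2, read 5.44, 9.30 and 8.56 in control and 6.88, 10.75 and 10.46 in mimic samples. The samples of number 1 were far below the rest in both groups, and the 3 differences within numbers were close, at 1.44, 1.44 and 1.89. The log2 difference was 1.59, or 3.02-fold, with an SE of 1.18 on the groups alone (adjusted p = 0.656) and 0.13 with the block (adjusted p = 0.00229).

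Cxcl1, another ligand of Cxcr2, read 5.28, 9.57 and 6.32 in control and 6.57, 10.05 and 7.56 in mimic samples. Both samples of number 2 stood above all others. Cxcl1 differed by 1.01 (SE 1.14, adjusted p = 0.818 on the groups alone; SE 0.17, adjusted p = 0.0147 with the block).

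Cxcl10, which draws activated T cells through Cxcr3, read 5.06, 6.40 and 4.62 in control and 5.67, 6.69 and 5.33 in mimic samples. Control sample 3 lies under its array median of 4.83 and control sample 1 close to its own of 4.95, so both may be background. The groups overlap, and the difference of 0.54 was small (SE 0.47, adjusted p = 0.730; SE 0.12, adjusted p = 0.0407 with the block). It passed in none of the 3 fits without both samples of 1 number (adjusted p = 0.0578 to 0.153), nor with the block after quantile normalization (adjusted p = 0.0710).

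The chemokines anchored in the membrane passed in neither fit. Cxcl16, a transmembrane ligand of Cxcr6 and the brightest of the 47 genes, read 9.99, 10.92 and 10.50 in control and 10.10, 11.01 and 10.65 in mimic samples. The mimic sample exceeded its control in each number by 0.15 or less. Its log2 difference was 0.12 with a 95% interval of -0.13 to 0.36 with the block and -0.53 to 0.76 without (adjusted p = 0.614 and 0.932). Cx3cl1, fractalkine, read 8.13, 8.10 and 7.93 in control and 7.997, 9.15 and 8.33 in mimic samples, a difference of 0.44 that mimic sample 2 led (adjusted p = 0.536; 0.283 with the block). The remaining 8 CXC chemokines had differences of -0.16 (Cxcl14) to 0.34 (Cxcl3). Cxcl9, the close relative of Cxcl10, had 0.14 at a mean of 4.25, and Cxcl3 read 4.73 in mimic sample 2 and 2.58 to 3.32 elsewhere.

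Among growth factors and cytokines, Csf1, Csf2 and Lif rose with the block, and Il33 fell. Csf2 (transcript cluster 17262816), granulocyte-macrophage colony-stimulating factor, read 4.64, 7.74 and 5.54 in control and 6.75, 9.32 and 7.85 in mimic samples. Control sample 1 lies under its array median of 4.95, so it may be background. Control sample 2 lies above mimic sample 1 and close to mimic sample 3, so the groups overlap. Within numbers the differences were 2.11, 1.58 and 2.31. The mean of these was 1.997, or 3.99-fold (SE 0.82, adjusted p = 0.293 on the groups alone; SE 0.16, adjusted p = 0.00191 with the block).

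Csf1, the growth factor of macrophages, read 6.43, 9.48 and 7.56 in control and 7.46, 9.81 and 8.50 in mimic samples. The order of the numbers is that of Csf2, with a smaller difference, 0.76 (SE 0.78, adjusted p = 0.786; SE 0.16, adjusted p = 0.0274 with the block). It did not pass without both samples of number 1 (adjusted p = 0.0694) or of number 3 (adjusted p = 0.0662). Csf3, the granulocyte factor, stayed between 3.64 and 4.13 in all samples.

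Lif, a cytokine of the interleukin 6 family, read 6.94, 7.71 and 6.73 in control and 7.88, 8.86 and 8.04 in mimic samples. All mimic samples lay above all controls, and the differences within numbers were 0.94, 1.15 and 1.31. The log2 difference was 1.13, or 2.20-fold (SE 0.31, adjusted p = 0.101; SE 0.12, adjusted p = 0.00351 with the block). Il33, a nuclear cytokine released from damaged epithelium, read 8.24, 8.61 and 8.10 in control and 7.11, 7.54 and 7.71 in mimic samples. Every mimic sample lay below every control, with a difference of -0.86, or 1.82-fold lower (SE 0.20, adjusted p = 0.0525; SE 0.16, adjusted p = 0.0201 with the block). On the groups alone Il33 passed without the dimmest genes (adjusted p = 0.0380) and with limma's trend and robust options (adjusted p = 0.0429), and with the block it was lost without both samples of number 2 (adjusted p = 0.107).

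The classical inflammatory triggers gave signals near background. The tumour necrosis factor gene Tnf read 4.80, 5.16 and 4.62 in control and 4.74, 5.01 and 4.46 in mimic samples, a difference of -0.12 (95% interval -0.56 to 0.31, adjusted p = 0.880). Il6, Il1a and Il1b, which encode interleukins 6, 1 alpha and 1 beta, had means of 3.08, 3.68 and 3.59 and differences of 0.11, -0.04 and -0.07. Il18, Il11 and Tslp had means of 3.56, 4.38 and 4.01 and differences of -0.06, -0.27 and 0.16. None of these 7 genes passed in either fit.

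Of the 3 adhesion molecules, Vcam1 alone passed. Vcam1 (transcript cluster 17409649), the ligand of an integrin on monocytes and lymphocytes, read 6.49, 8.27 and 6.81 in control and 9.35, 10.25 and 9.90 in mimic samples. The lowest mimic sample lies more than 1 log2 unit above the highest control. Its log2 difference of 2.65, or 6.26-fold (SE 0.43, adjusted p = 0.0169; SE 0.21, adjusted p = 0.00191 with the block), was number 2 of all genes tested by size of rise, and that of Ccl2 number 4. With 1 array left out, the adjusted p of Vcam1 on the groups alone ran from 0.00369 to 0.0641, and it passed without control sample 2 or mimic sample 1. With the block it passed without any 1 number. Icam1, the ligand of leukocyte beta-2 integrins, read 6.09, 7.74 and 6.10 in control and 6.45, 8.14 and 5.84 in mimic samples. The samples of number 2 were high in both groups and the mimic sample of number 3 lay below its control, for a difference of 0.17 (95% interval with the block -0.19 to 0.53, adjusted p = 0.609). Sele, E-selectin of activated endothelium, lay between 4.18 and 4.85 with a difference of -0.21 (adjusted p = 0.679; 0.326 with the block).

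Several of the 47 genes also differed between replicate numbers. An F-test of the replicate number in the fit with the block called 7 of the 47 genes, 14.9%, against 0.314% of all genes tested (97 of 30927). These were Cxcl5, Cxcl1, Ccl20, Csf2, Csf1, Icam1 and Cxcl10, and in each the mean of control and mimic sample was highest for number 2. Of the 7, 6 also passed between mimics with the block and Icam1 did not. Vcam1, Ccl2, Ccl7, Ccl9, Lif and Il33 passed between mimics with the block and not in the F-test. Among the 97 genes, 48 were highest in number 2, 34 in number 3 and 15 in number 1. The range of the 3 number means was 3.88 for Cxcl1, or 14.8-fold (adjusted p = 0.00479), 3.86 for Cxcl5 (adjusted p = 0.000995), 3.02 for Ccl20 (0.00479), 2.84 for Csf2 (0.0101), 2.70 for Csf1 (0.0115), 1.97 for Icam1 (0.0251) and 1.56 for Cxcl10 (0.0314). For Ccl2 and Ccl7 it was 3.14 and 2.34, with adjusted p-values of 0.0637 and 0.0523. Of the 10 genes with the widest ranges among all genes tested, 6 were of this set, namely Cxcl1, Cxcl5, Ccl2, Ccl20, Csf2 and Csf1. The labels do not say what a replicate number stands for, and its part in the levels beyond the samples' own spread was not tested further.

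Genes with a wide spread between numbers went either way between mimics. Ccl20 was high in number 2 like Cxcl1 and Csf1 but fell, and Icam1 was high in number 2 and passed in neither fit between mimics. Vcam1, Ccl9, Lif and Il33 had ranges between numbers of 1.34, 1.06, 0.90 and 0.40, and the sizes of their differences between mimics were larger than these. For Ccl2, Ccl7, Csf2, Cxcl5, Cxcl1, Csf1, Cxcl10 and Ccl20 the range between numbers exceeded the difference between mimics.

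**Figure D3:**
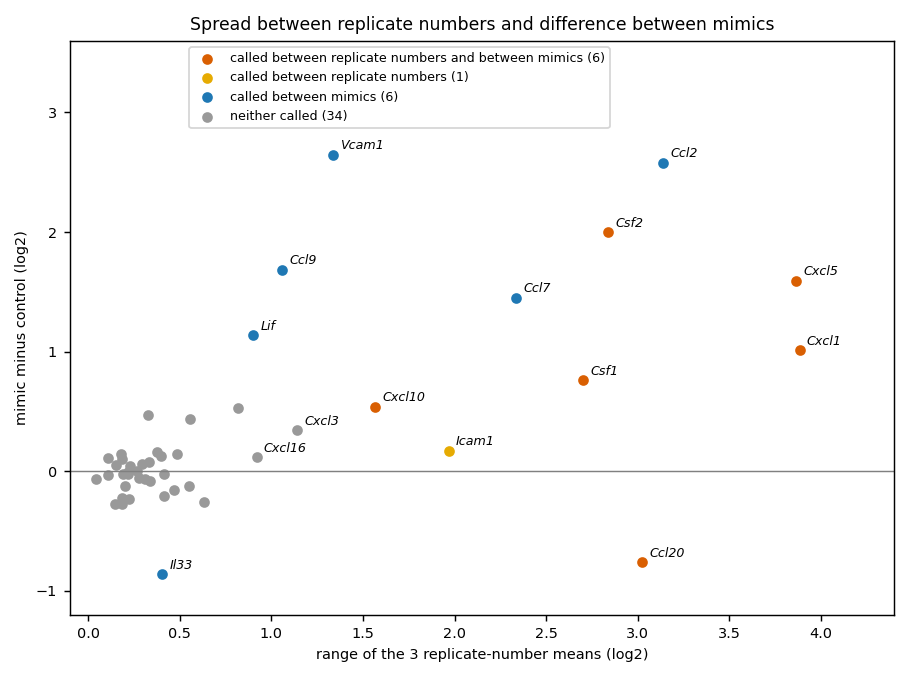
Range of the 3 replicate-number means (horizontal axis, log2) and difference between mimic and control (vertical axis, log2) of the 47 genes, coloured by which tests called them. Cxcl1 and Cxcl5 lie farthest right, with ranges of 3.88 and 3.86, and Vcam1 and Ccl2 lie highest. The 34 genes called by neither test have ranges up to 1.14 (Cxcl3) and differences up to 0.53 (Ccl3).

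Many chemokine genes lie in clusters, and neighbours within a cluster differed. In the RefSeq gene table (GRCm38.p6), used here for gene order only, Ccl2, Ccl7, Ccl11, Ccl12, Ccl8 and Ccl1 follow each other with no other protein-coding gene between. Ccl2 and Ccl7 rose with the block, and the next 4 had means of 2.93 (Ccl12) to 4.71 (Ccl11) and differences of -0.27 to 0.05. In the run of Ccl5, Ccl9, Ccl6, Ccl3 and Ccl4, Ccl9 rose while both of its neighbours, Ccl5 and Ccl6, had differences of -0.01 and 0.00 at means of 5.09 and 4.06. In the CXC run of Cxcl5, Cxcl3, Cxcl15 and Cxcl1, with 2 other coding genes after Cxcl5, the genes at both ends rose with the block, and Cxcl3 and Cxcl15 between them had means of 3.33 and 3.32. Cxcl1 and Cxcl3, and likewise Ccl2, Ccl7 and Ccl12, are close paralogs, so a probe set may read more than 1 of them and the share of each is uncertain.

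**Figure D4:**
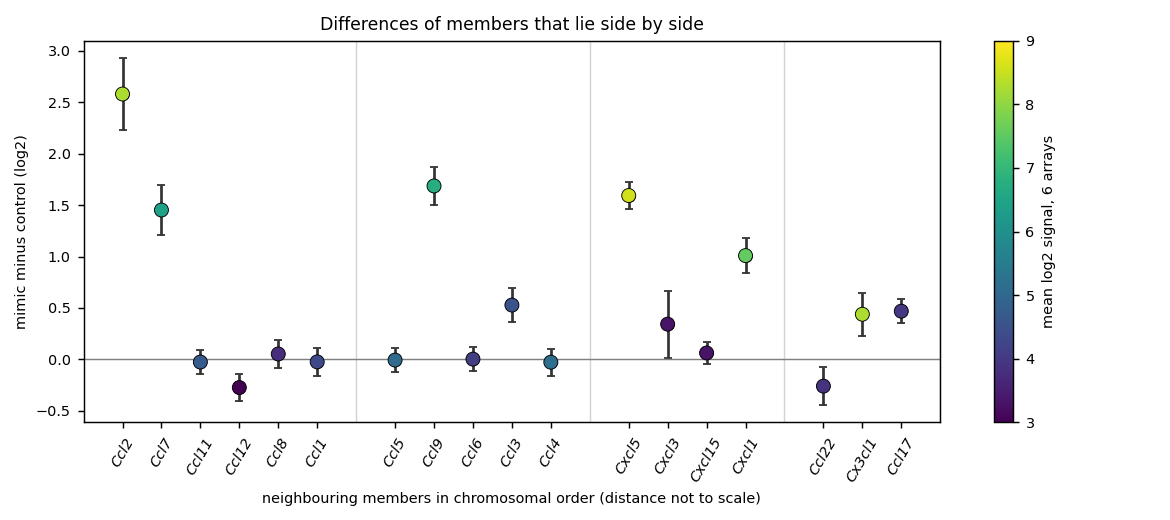
Difference between mimic and control (vertical axis, log2, with the SE of the fit with the block as error bars) of 18 genes that lie side by side, in chromosomal order within 4 runs parted by grey lines. Colour gives the mean log2 signal. Ccl2, Ccl7, Ccl9, Cxcl5 and Cxcl1 stand between 1.01 and 2.58, while Ccl12, at -0.27, is the lowest and Ccl3, at 0.53, is the highest of the other 13.

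Promoters are shown for 4 genes that passed with the block, because they hold a spelling of the binding site of NF-kB: Cxcl1, Cxcl10 and Ccl9, which rose, and Ccl20, which fell. Each runs from 250 bases before to 50 after the transcription start (RefSeq, GRCm38.p6), and capitals mark matches on either strand to a 10-letter NF-kB motif with fixed ends and free bases within. The windows are chr5:90890995-90891294 (plus strand) for Cxcl1, chr1:83116516-83116815 (plus strand) for Ccl20, chr5:92348840-92349139 (minus strand) for Cxcl10 and chr11:83578587-83578886 (minus strand) for Ccl9.
Cxcl1: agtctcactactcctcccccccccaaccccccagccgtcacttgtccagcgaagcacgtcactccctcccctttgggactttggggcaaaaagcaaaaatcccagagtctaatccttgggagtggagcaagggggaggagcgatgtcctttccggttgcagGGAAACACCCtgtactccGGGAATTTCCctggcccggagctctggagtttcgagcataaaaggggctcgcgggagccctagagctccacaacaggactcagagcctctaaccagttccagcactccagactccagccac
Ccl20: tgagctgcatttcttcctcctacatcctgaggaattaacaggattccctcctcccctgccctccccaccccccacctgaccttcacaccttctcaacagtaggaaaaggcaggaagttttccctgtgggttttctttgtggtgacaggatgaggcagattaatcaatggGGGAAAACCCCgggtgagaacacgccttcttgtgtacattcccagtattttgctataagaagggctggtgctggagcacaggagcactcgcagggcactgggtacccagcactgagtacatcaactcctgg
Cxcl10: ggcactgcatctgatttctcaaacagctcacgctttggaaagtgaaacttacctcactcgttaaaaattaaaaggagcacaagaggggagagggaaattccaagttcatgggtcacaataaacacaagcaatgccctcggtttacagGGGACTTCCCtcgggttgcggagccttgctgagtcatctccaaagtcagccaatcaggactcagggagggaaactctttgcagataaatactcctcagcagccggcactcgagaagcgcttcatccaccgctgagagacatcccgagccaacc
Ccl9: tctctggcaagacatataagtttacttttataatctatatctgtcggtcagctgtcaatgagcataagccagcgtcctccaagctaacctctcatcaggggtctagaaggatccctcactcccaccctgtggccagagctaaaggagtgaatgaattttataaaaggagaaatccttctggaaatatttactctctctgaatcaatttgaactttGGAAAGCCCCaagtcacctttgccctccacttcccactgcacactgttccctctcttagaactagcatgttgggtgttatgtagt

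Counted from the start, the matches of Cxcl1 begin at -89 and -71, an overlapping pair in Ccl20 begins at -81 and -80, and those of Cxcl10 and Ccl9 begin at -103 and -35. A promoter window was at hand for 33 of the 47 genes, and 9 of the 33 (27.3%) held the motif, against 5.48% of the 27025 genes with a window. The 9 were Ccl19, Ccl20, Ccl9, Csf1, Cxcl1, Cxcl10, Cxcl3, Cxcl9 and Il6, so the letters stand in genes that rose, fell and were near background alike. Of 8 genes that passed with the block and had a window, 5 held it. TGANTCA, the site of the factor AP-1, was also in 9 of the 33, against 8.97% of all genes with a window, and overlapped the first motif in 0 windows. A match is a description of the letters, not of binding. The genes and the motif spellings, of several looked at, were chosen with earlier results of these data known, so these shares are not a test.

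Of 37 NF-kB pathway genes, 1 fell (Chuk, 2.70% of the list) and 0 rose in limma on the groups alone. Over all genes tested 1.68% fell and 1.89% rose, so the counts of this list are near those shares. Before adjustment 10 of the 37 genes (27.0%) had a p under 0.05, 7 higher and 3 lower, against 15.1% of all genes tested. This list is brighter than all genes tested, with a median of the gene means of 7.86 against 4.89. Of the 37 genes, 34 had means above the median of all genes and 30 above the upper quartile. Shares among genes of like brightness were not computed, which limits this and the comparisons below. Chuk, which encodes the kinase IKK alpha, read 9.65, 9.38 and 9.63 in control and 8.47, 8.49 and 8.81 in mimic samples. The groups were well apart, with a log2 difference of -0.96 (SE 0.15, adjusted p = 0.0132), a call lost without control sample 1 (adjusted p = 0.0668) or mimic sample 2 (adjusted p = 0.0505). The block raised these counts to 5 rises and 2 falls, 13.5% and 5.41% of the list, against 4.7% and 3.88% of all genes tested. Named after their values were seen, the 5 were the inhibitor gene Nfkbie (0.67), the subunit gene Nfkb1 (0.60), the adaptor gene Traf3 (0.58) and the kinase genes Map3k14 (0.56) and Ikbke (0.56). The second to fall was Bcl3, a nuclear co-regulator, with -0.57. The F-test between replicate numbers called 2 genes of the list (5.41%, against 0.314% of all genes tested), Nfkbia and Irak3, named with Tnfaip3 after their values were seen. Nfkbia, which encodes I kappa B alpha, read 8.68, 11.14 and 9.42 in control and 9.67, 11.17 and 10.02 in mimic samples. Tnfaip3, which encodes A20, read 7.76, 10.35 and 8.26 and then 8.96, 10.40 and 9.12. Number 2 was the highest in both groups for these genes, with ranges between numbers of 1.98 (adjusted p = 0.0445) and 2.02 (adjusted p = 0.0502), and neither passed between mimics (adjusted p = 0.124 and 0.0912 with the block). Irak3, an inhibitory member of the kinase family that relays interleukin 1 signals, was highest in number 3 instead, with 5.37, 6.34 and 6.67 in control and 5.21, 6.08 and 6.32 in mimic samples (range between numbers 1.21, adjusted p = 0.0445).

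Of 38 receptors for these ligands, limma called 1 higher on the groups alone and 3 with the block, and 0 lower in both fits. On the groups alone that is 2.63% of the list higher, against 1.89% of all genes tested. With the block it is 7.89% of the list, against 4.7% of all genes tested. Before adjustment 3 (7.89%) had a p under 0.05, all of them higher, a smaller share than the 15.1% of all genes tested. Il1r1, the signalling receptor of interleukin 1, read 6.16, 6.24 and 6.50 in control and 7.77, 7.90 and 7.84 in mimic samples. The samples of each group were close together, whatever their number, and the log2 difference was 1.54, or 2.91-fold (SE 0.13, adjusted p = 0.00318). It passed in all 6 fits with 1 array left out (adjusted p up to 0.0164). The other 2 called with the block, named after their values were seen, were Il18rap, a subunit of the interleukin 18 receptor, and Tnfrsf1b, a receptor of tumour necrosis factor. Their differences were 1.15 (SE 0.15) and 0.92 (SE 0.11) with the block. On the groups alone neither passed (adjusted p = 0.0998 and 0.330), and the groups overlap for both. Il18rap had a mean of 4.87, just under the median of all genes (4.89), so its signal may be background. Of 18 integrin partners and other adhesion molecules, 1 rose and 1 fell in both fits, or 5.56% each way. Over all genes tested, 1.89% rose and 1.68% fell on the groups alone, and 4.7% and 3.88% with the block. Jam2, a junctional adhesion molecule that binds leukocyte integrins, read 8.51, 8.78 and 8.89 in control and 6.99, 7.48 and 7.75 in mimic samples, all below the controls. Its difference was -1.31 (SE 0.20, adjusted p = 0.0137), and it passed in all 6 fits with 1 array left out. Alcam, the activated leukocyte cell adhesion molecule, lay between 9.44 and 9.62 in control and 10.12 and 10.39 in mimic samples, a difference of 0.71 (SE 0.13, adjusted p = 0.0270) that passed in none of those 6 fits (adjusted p = 0.0548 to 0.114).

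In the authors' deposited table, 0 of the 47 genes had an FDR p-value under 0.05, and the lowest was 0.238 for Vcam1. Only 4 of all genes tested had such a value, so the 0 says little about these 47.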

How the data were processed

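RNA of 6 samples was measured on Affymetrix arrays from biotinylated cRNA, per the labels' protocols. The authors deposited 1 log2 signal per transcript cluster and array, 41345 in all, taken here as normalized; array design, background correction and normalization remain not given in the sources used here. Per the file headers, the authors' comparison table gives bi-weight averages of log2 signals, a signed fold change (a score), a linear ratio, a p-value of an ANOVA and its FDR p-value, for 34472 rows. The same file gave the gene symbols, joined by transcript cluster ID. Rows without a symbol (2003), with a symbol turned into a date or number (15) or not listed there (6874) were left out. Of 32453 named rows, the one with the highest mean was used for each of 30927 genes. The number of arrays limits the precision.

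Mimic minus control was fitted with limma 3.58.1 (lmFit and eBayes, R 4.3.3) over all genes with no filter, with Benjamini-Hochberg adjustment over all of them and a threshold of 0.05. All adjusted p-values come from it, the replicate F-test included. Between samples of the same number, deviations from the group means had correlations of 0.431, 0.370 and 0.442 over genes, so same-numbered samples were treated as pairs; this comes from the values, not from the labels. The fits were also run on simulated data whose arrays had independent noise, with no part shared by replicate number. That setting cannot check the use of the block. With the block, the SE and p-value of a gene rest on the spread of its few within-number differences. The eBayes step moderates that spread with the variance of all genes. The 47 genes, the lists, and the motif spellings, of several looked at, were chosen with earlier results of these data known, and the F-test and the fits without a replicate number after seeing the values. Named genes were those called in either fit, the 20 with the smallest p, the 5 brightest, the cytokines and adhesion molecules listed by name, and from the pathway, receptor and adhesion lists the called genes, up to 6 by smallest p, or else the 2 with the smallest p. Sequences are RefSeq's. Figures were drawn with matplotlib 3.10.9 in Python 3.11.15, tables with pandas 2.3.3, numpy 2.4.6 and the R package data.table (1.17.8).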

Additional observations from a re-analysis of the deposited data

How the results depend on the processing

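Of the named members of the 47, and of Chuk, Il1r1, Jam2 and Alcam, none that passed changed direction under the alternatives run for it. The other named genes were not compared across alternatives. Some sizes on the groups alone nearly vanished with 1 array left out. The difference was 0.015 for Cxcl1 without mimic sample 2, -0.035 for Ccl20 without mimic sample 1 and 0.063 for Csf1 without control sample 1. On the groups alone, 2 of the 47 genes rose and 0 fell, and the counts were 1 and 1 after quantile normalization and 10 and 2 with the replicate block. A fall of 1 gene was also called without dim genes and with trend and robust options. With 1 array left out, 0 to 3 rose. Over all genes tested, 584 rose and 519 fell, against 1454 and 1200 with the replicate block, 351 rises after median centring, and 150 to 363 rises and 172 to 358 falls with 1 array left out. By the authors' FDR p-value, 2 genes rose and 2 fell in all, and 0 of the 47, 0 NF-kB pathway genes and 0 receptors were called. NF-kB pathway genes had 2 rises without dim genes, 5 rises and 2 falls with the block, and 0 to 1 falls with 1 array left out; receptors had 3 rises with the block and 1 to 2 with 1 array left out.

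The fits below were added after seeing the data. With the block and without both samples of number 1, 2 or 3, 10, 8 and 8 of the 47 genes rose and 2, 0 and 2 fell, and of NF-kB pathway genes 3, 1 and 2 rose and 1, 1 and 2 fell. These fits have fewer samples. The F-test between replicate numbers called 11 of the 47 after median centring, against 7. Counts over all genes tested are not given for the fits of this paragraph. Its counts therefore cannot be read as more or fewer than elsewhere. The cause of these changes was not tested, and a signal near background limits how far a gene can be seen to fall.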
